A study of Mus musculus with 24 samples.

Results

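The circular RNA of Zfp609 was 1 of the 1717 circular RNAs in a table of back-splice junction reads from mouse cardiac fibroblasts. It was found by its host: the junction lies on the minus strand and both its ends coincide with exon edges of Zfp609 in the mm10 annotation (gene at chr9:65692391-65827564). No second junction of the gene was among the 1717, and Zfp609 was thus among the 867 of 1187 host genes with 1 circle. The libraries came from male C57BL/6J mice that were 8 weeks old at surgery and had no other genetic change by the labels. TAC mice had a suture tied around the transverse aorta between the innominate and left carotid arteries, which loads the left ventricle with pressure, and sham mice had the operation without the tie. Fibroblasts were isolated by Langendorff perfusion 1, 4 or 8 weeks later. Each group has 4 libraries at 1 week, while sham has 5 and TAC 4 at 4 weeks, and sham has 4 and TAC 3 at 8 weeks. The sources used here give no sort on cell type and do not say how many hearts went into a library or whether libraries came from separate mice. The p-values below therefore reflect only how far these libraries scatter, and that scatter may be technical in part. Those of the fitted comparisons (limma) use a spread pooled over circles of similar level, not that of this circle alone.

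A circular RNA forms when the splice donor at the end of an exon joins the acceptor at the start of the same or an earlier exon, and the closed product lacks the ends that exonucleases attack. Zfp609 (ZNF609 in human) encodes a zinc finger protein of the nucleus that binds the cohesin loader Nipbl and the Integrator complex. The circle of its second exon is conserved between mouse and human, is abundant in muscle precursors, where its depletion slows the proliferation of human myoblasts, and carries the start codon of its host gene, which has made it a model for translation of circular RNA. Only the back-splice was counted here, so the values say nothing about the linear mRNA.

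The circle consists of exon 2 of the 10 exons of transcript Zfp609-201 (chr9:65794622-65795495, minus strand), 874 bases in all. Of these, 127 are 5′ untranslated and 747 are coding, which is 249 whole codons from the annotated start codon to the end of the exon. The sequences below show the start codon and the end of the coding part of the exon, which the circle shares with the linear mRNA. They are written 5′ to 3′ on the strand of the gene, as DNA, from the GENCODE transcript. In the first, the capitals mark the start codon, and in the second, the last codon of the exon.
Start codon (chr9:65795348-65795377): gactctaagATGtccttgagcagtggagcc
Last 150 coding bases of exon 2 (chr9:65794622-65794771): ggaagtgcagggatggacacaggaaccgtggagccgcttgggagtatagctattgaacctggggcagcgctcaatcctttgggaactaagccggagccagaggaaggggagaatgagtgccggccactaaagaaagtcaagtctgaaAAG

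An annotated start codon was present in 262 of the 1657 circles whose sequence could be taken from 1 transcript (15.8%). The 61 circles made of exon 2 alone held one in 33 cases, and the 106 circles of 1 exon in 42. No protein was measured, and the start codon is a description of the sequence only.

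The exon and its introns were longer than those of most circles. Its 874 bases compare with a median spliced length of 420 over the 1657 circles, of which 10.7% were longer, and with a median of 575 over the 106 circles of 1 exon, where it was at percentile 71.7. The intron before exon 2 spans 31970 bp (median over circles 10910 bp) and the intron after it 63420 bp (median 9717 bp, with 95.7% of circles at or under the Zfp609 value). Its GC content was 54.5% against a median of 49.3%. Circles of 1 exon made up 106 of the 1717 (6.17%), and 61 of the 106 were exon 2 of the matched transcript. Seed matches were sought on the sense strand, across the back-splice as well, for 5 miRNAs that have been linked to this circle. Mature sequences were at hand for 3 of them: miR-615-5p (match GGACCCC), miR-138-5p (CACCAGC) and miR-134-5p (CAGTCAC); miR-150-5p and miR-145a-5p were named only. None of the 3 strings was present in the circle, while 7.82%, 17.9% and 11.2% of the first 874 bases of the 179 circles at least that long held them.

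**Figure D1:**
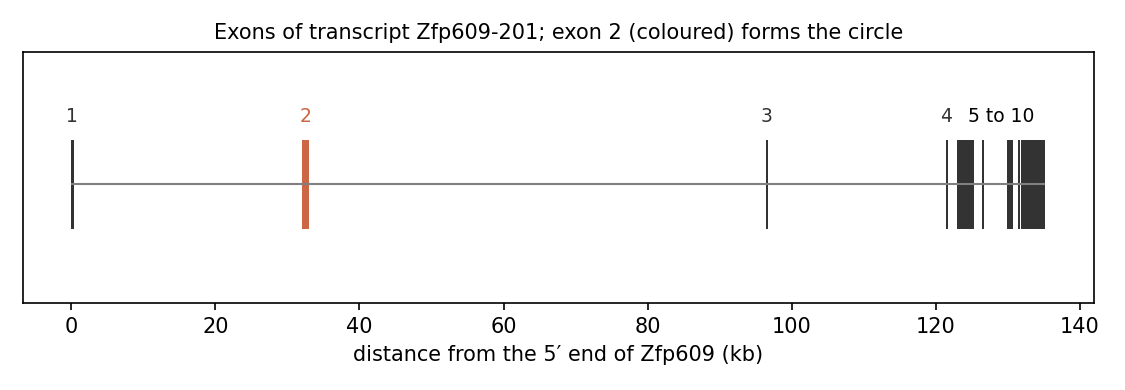
Exons of transcript Zfp609-201 along the gene, as distance in kb from its 5′ end; boxes are exons, drawn to scale but with a minimum width for short ones, and the line is intron. Exon 2, in colour, forms the circle and lies between an intron of 31970 bp and one of 63420 bp.

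Depth was low. Libraries held 3595 to 9146 junction reads, and 236 of all these reads, between 1 and 19 in a library, belonged to the Zfp609 circle. It was read in each of the 24 libraries, as were 277 circles in all, and its mean share of 0.166% put it in place 99 of 1717. Among the 106 circles of 1 exon it was in place 10 by this share, and among the 29 circles of genes named Zfp in place 4. Values below are normalized reads, that is junction reads divided by the authors' library factor, with 1 read worth 0.642 to 1.57 normalized reads. Per library, its rank among the 1717 circles lay between 42 and 138 in 17 libraries, those of all groups but sham at 1 week (256 to 750) and TAC at 8 weeks (102 to 430).

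At 1 week after surgery the 4 sham libraries gave 5.02, 2.49, 1.50 and 5.17 normalized reads for replicates 1 to 4, which rest on 4, 2, 1 and 5 reads. The 4 TAC libraries gave 10.8, 9.59, 11.0 and 8.76, from 7, 10, 11 and 9 reads. Every TAC library was above every sham library, which held for 2.21% of all circles at this time. Sham averaged 3.55 ± 1.84 and TAC 10.0 ± 1.04 normalized reads (SD, n = 4 each), and the fitted log2 fold change was 1.50 ± 0.49 (SE; 95% interval 0.54 to 2.46), a 2.83-fold difference. With limma over all 1717 circles the Benjamini-Hochberg adjusted p was 0.0937 (unadjusted 0.00218, place 40), so the difference did not pass the threshold of 0.05. Of all circles 1.46% passed it, 0.757% as higher in TAC. The interval of this single fit lay above 0, and the call failed on the adjustment. Restricting the test to circles with a mean of at least 5 reads left the fold change as it was and gave a limma adjusted p of 0.0200; over all settings tried it ran from there to 0.369.

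The share of junction reads does not use the deposited scaling. The deposited library factors were within 4.999% of factors from total junction reads, however. The share is thus nearly the same measure as the normalized reads and not separate evidence. At 1 week sham averaged 0.0610% ± 0.0312 and TAC 0.180% ± 0.0223 (SD, n = 4 each), a ratio of 2.95. The exact two-sided permutation test gave p = 0.0286, which is the minimum for 2 groups of 4, and 0.0857 after Benjamini-Hochberg adjustment for 3 times. Exchanging libraries only within the 4 same-numbered pairs, TAC was higher in 4 of 4 and the exact permutation p was 0.125, the smallest that 4 pairs allow. Summed over libraries, sham had 12 Zfp609 reads of 18724 (0.0641%, 95% Wilson interval 0.0367 to 0.112) and TAC had 37 of 20829 (0.178%, 0.129 to 0.245). These intervals cover counting error only. They do not overlap, and the low value of the sham group rests on those 12 reads.

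Markers of several cell types were looked up among the circles because the labels name no sort. For fibroblasts, 3 of the 20 marker genes listed hosted a circle (Bnc2, Dcn and Svep1) and 17, the collagens, Pdgfra and Tcf21 among them, hosted none of the 1717, so the fibroblast label could be checked on few circles. At 1 week the summed normalized reads of the 5 fibroblast marker circles were 7.48 to 17.6 in sham and 16.5 to 32.9 in TAC. Those of the 16 cardiomyocyte marker circles (8 of 25 genes, with none of Myh6 or Tnnt2) were 41.4 to 148.8 in sham and 27.8 to 35.9 in TAC. Of these 16 circles, 6 had positive and 10 negative fold changes (median -0.98 against 0.04 over all circles). The 17 leukocyte circles (4 of 18 genes, none of Ptprc) summed to 61.6 to 162.0 and 58.4 to 130.7, the 5 endothelial circles (3 of 13 genes, none of Cdh5) to 5.02 to 16.5 and 8.98 to 11.5, and the only mural circle (1 of 7 genes, Abcc9) to 0 to 9.31 and 0.973 to 4.61. In bulk libraries, fewer cells of a type and less RNA per cell cannot be told apart. The part of these shifts in the Zfp609 values was not tested.

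At 4 weeks the Zfp609 group means were close. Fibroblast marker circles summed to 4.71 to 14.7 in sham and 19.8 to 23.96 in TAC, and cardiomyocyte circles to 47.0 to 129.3 and 24.7 to 51.4. Leukocyte circles, which come from 4 genes, summed to 82.4 to 165.0 and 39.2 to 110.0. Of their fold changes 4 were positive and 13 negative (median -0.58 against 0.12 over all circles). Endothelial circles summed to 6.28 to 16.8 and 11.0 to 18.6, and the mural circle to 2.04 to 11.0 and 4.36 to 6.76. The part of these shifts in the Zfp609 values was not tested. The 5 sham libraries gave 14.0, 15.7, 9.55, 12.2 and 8.29 normalized reads, from 15, 10, 11, 12 and 9 reads, and the 4 TAC libraries gave 14.4, 13.9, 13.8 and 8.99, from 17, 19, 19 and 14 reads. The groups overlapped over their whole range. The means were 11.96 ± 3.07 (SD, n = 5) and 12.8 ± 2.53 (n = 4), and the log2 fold change was 0.11 ± 0.46 (SE; limma adjusted p = 0.98; 0.116% of circles called). Its 95% interval, -0.80 to 1.01, still holds a doubling, which is 1 on this scale, so the test does not show that the groups are alike. The shares were 0.208% ± 0.0533 and 0.220% ± 0.0446 (exact permutation p = 0.762).

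At 8 weeks TAC libraries were on average lower, with overlap. The 4 sham libraries gave 11.7, 8.80, 13.5 and 9.55 normalized reads, from 11, 8, 14 and 9 reads. The 3 TAC libraries gave 9.58, 7.15 and 3.43, from 8, 7 and 4 reads, and the first of them lay within the sham range. The means were 10.9 ± 2.12 (SD, n = 4) and 6.72 ± 3.10 (n = 3), with a log2 fold change of -0.74 ± 0.53 (SE; 95% interval -1.78 to 0.29; limma adjusted p = 0.885; 0% of circles called, with 104 at an unadjusted p under 0.05). Without TAC replicate 3 the fold change was -0.36. The shares were 0.190% ± 0.0348 and 0.118% ± 0.0559 (exact permutation p = 0.171; 3 against 4 libraries cannot go below 0.0571). Averaged over the 3 times with equal weight, the log2 fold change was 0.29 ± 0.28 (SE; limma adjusted p = 0.781, with 0.641% of circles called), a mean of values of opposite sign; 0.349% of circles were called higher. At 8 weeks the fibroblast marker circles summed to 6.38 to 16.4 in sham and 13.7 to 28.7 in TAC, and cardiomyocyte circles to 63.5 to 129.8 and 50.6 to 64.4. Leukocyte circles summed to 88.3 to 123.2 and 87.4 to 102.0, and endothelial circles to 5.77 to 14.9 and 13.3 to 16.8. In the average over times 1 of the 5 fibroblast circles was called higher (Svep1, 1.22 ± 0.30, SE; limma adjusted p = 0.0124). In that average 2 of the 16 cardiomyocyte circles, both of Ttn, were called lower. Of the 16, 5 had positive and 11 negative fold changes (median -0.35 against 0.06 over all circles). Among the positive was that of Cacna1c, exons 2 and 3 (0.53 ± 0.35, SE). The part of these shifts in the Zfp609 values was not tested.

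**Figure D2:**
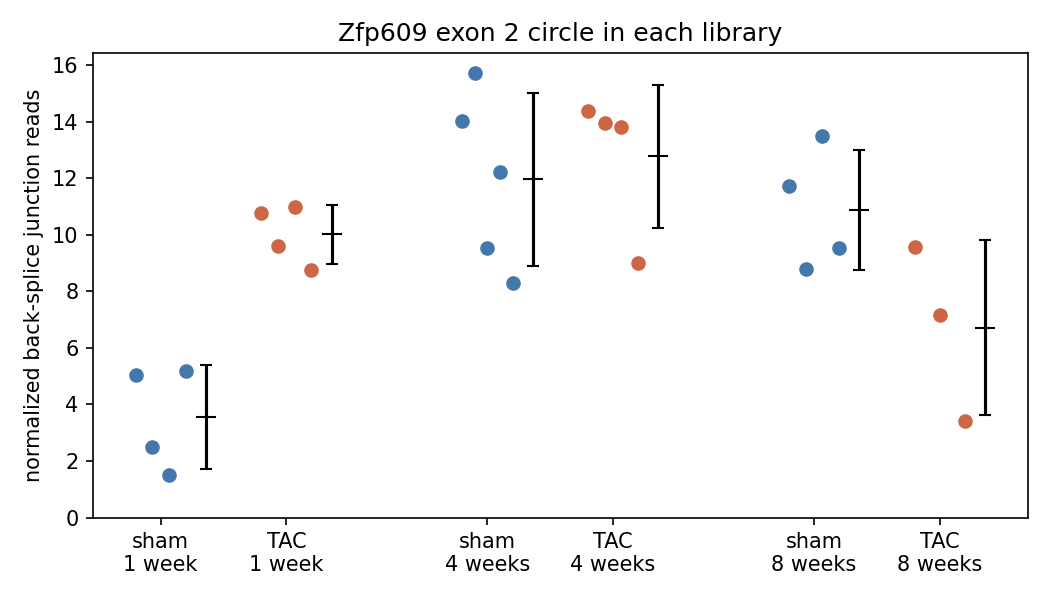
Normalized back-splice junction reads of the Zfp609 circle; each point is a library, in replicate order within its group, and the bars give the mean ± SD. The 4 sham libraries at 1 week lie between 1.50 and 5.17, under each of the 4 TAC libraries of that week (8.76 to 11.0), while the groups of 4 and 8 weeks overlap.

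The TAC effect itself was compared between times. The effect at 8 weeks minus that at 1 week was -2.24 ± 0.72 on the log2 scale (SE; 95% interval -3.65 to -0.83; limma unadjusted p = 0.00187, adjusted p = 0.218), in place 14 of the 1717 circles. The effect at 4 weeks minus that at 1 week was -1.40 ± 0.67 (adjusted p = 0.578), and 8 weeks minus 4 weeks was -0.85 ± 0.70 (adjusted p = 0.852), or -0.46 without TAC 8-week replicate 3. None passed, and no circle of the table was called in these 3 comparisons (0% each), with 148, 138 and 109 at an unadjusted p under 0.05.

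The level in sham libraries was set against time after surgery. Sham libraries of 4 weeks (8.29 to 15.7) and of 8 weeks (8.80 to 13.5) were all above those of 1 week (1.50 to 5.17), a pattern shown by 1.05% and 2.15% of all circles. The log2 fold change was 1.71 ± 0.46 for 4 weeks against 1 week (SE; 95% interval 0.80 to 2.62; limma unadjusted p = 0.000233, adjusted p = 0.189), the second smallest p of the table, where 0% of circles were called. The smallest belonged to Tcf20, a transcriptional coregulator gene whose circle is also exon 2 alone (2.03 ± 0.50, limma adjusted p = 0.101; named after the values were seen). For 8 weeks against 1 week the Zfp609 value was 1.60 ± 0.49 (limma adjusted p = 0.215, place 7; 0.116% called), and for 8 weeks against 4 weeks -0.11 ± 0.46 (adjusted p = 0.978; 0% called). With circles of at least 5 mean reads the limma adjusted p was 0.0135 for 4 weeks and 0.0290 for 8 weeks, where the highest over the settings tried were 0.525 and 0.578. Without sham 1-week replicate 1 the 4-week difference was 1.91 and passed (adjusted p = 0.0447).

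These differences and the TAC difference at 1 week share the 4 sham libraries of 1 week, so they are not separate evidence that this group is low. TAC libraries of different weeks share none of them. Among TAC libraries, 4 weeks against 1 week was 0.32 ± 0.49 (SE), 8 weeks against 1 week -0.64 ± 0.53 and 8 weeks against 4 weeks -0.96 ± 0.53 on the log2 scale (limma adjusted p = 0.961, 0.788 and 0.997; 0% of circles called in each). All TAC libraries of 4 weeks exceeded all of 8 weeks in 3.61% of circles, but not in Zfp609, where the lowest of 4 weeks was 8.99 and the highest of 8 weeks 9.58. Without TAC 8-week replicate 3 the values against 1 and 4 weeks were -0.26 and -0.57.

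The marker sums of the sham groups are given beside this. In sham at 4 and 8 weeks, fibroblast marker circles summed to 4.71 to 14.7 and 6.38 to 16.4, cardiomyocyte circles to 47.0 to 129.3 and 63.5 to 129.8, and leukocyte circles to 82.4 to 165.0 and 88.3 to 123.2. Each of these ranges overlapped that of sham at 1 week. The 17 leukocyte circles come from 4 genes, so their signs are not separate evidence. Of the 17, 16 had positive fold changes from 1 to 4 weeks (median 0.62 against 0.08 over all circles). From 1 to 8 weeks 11 had positive fold changes (median 0.49 against 0.10). None was called at either time, where 0% and 0.116% of all circles were. The part of this shift in the Zfp609 values was not tested. Junction reads per library were 3752 to 5522 in sham at 1 week, 3618 to 6524 at 4 weeks and 5170 to 6103 at 8 weeks.

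**Figure D3:**
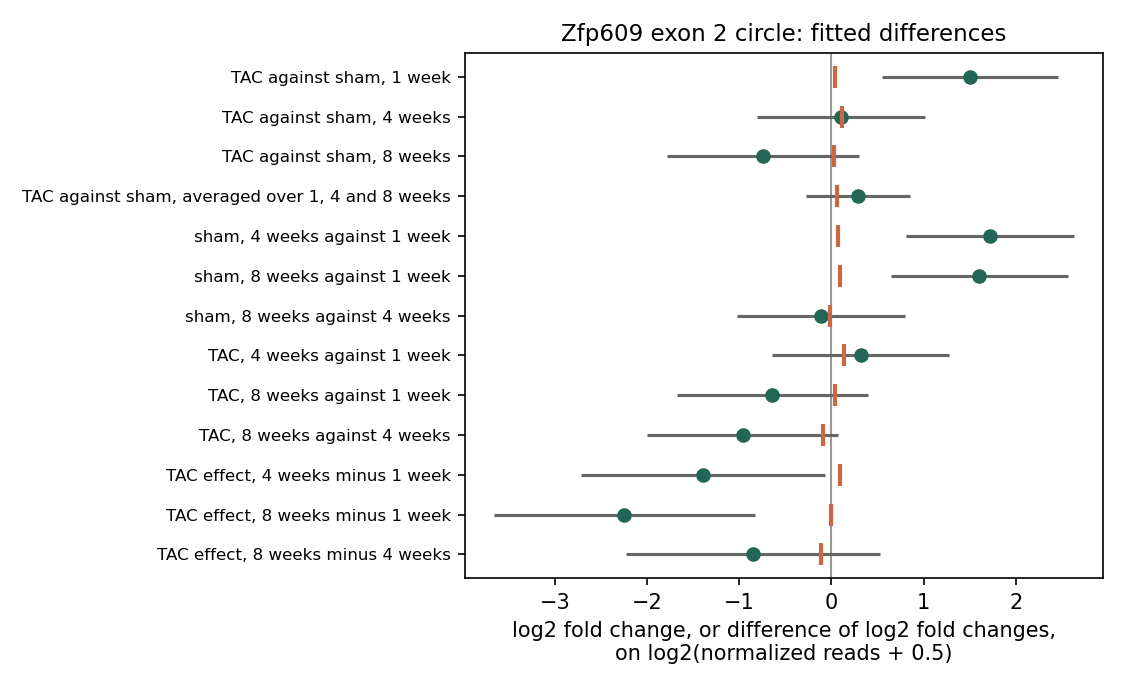
Fitted log2 differences of the Zfp609 circle for the 13 comparisons; points are estimates, lines are 95% intervals before any adjustment, and the upright marks give the median over all 1717 circles. The estimates farthest from 0, 1.50, 1.71, 1.60 and -2.24, all contain the sham libraries of 1 week, as do -1.40 and 0.29, and no comparison passed the adjusted threshold.

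In order of their means the 6 groups were TAC at 4 weeks, sham at 4 weeks, sham at 8 weeks, TAC at 1 week, TAC at 8 weeks and sham at 1 week. Each group overlapped the next in this order. The SD between libraries was 1.04 to 3.10 normalized reads, and the SD that counting alone would give on this scale was 2.16 to 3.50. The SD was the larger in TAC at 8 weeks, 3.10 against 2.55.

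The circles nearest in level had higher means in sham at 1 week. The neighbours in mean share were those of Arhgap26 and Apbb2 just above and Cbfb and Wwc2 just below, at 0.162% to 0.167% of junction reads. Their log2 fold changes at 1 week were -0.70, -0.23, -0.11 and -0.55, and none was called (limma adjusted p = 0.606 to 0.963). Sham means at 1 week were 9.23 ± 5.18 (Apbb2), 10.5 ± 4.81 (Cbfb), 11.9 ± 1.49 (Arhgap26) and 13.5 ± 13.1 (Wwc2) normalized reads (SD, n = 4 each). That of Zfp609 was 3.55 ± 1.84. The difference between Zfp609 and these circles was not tested.

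The circles whose normalized reads ran most like those of Zfp609 over the 24 libraries were sought among the 88 circles of other genes with a mean of at least 10 reads. They came from Tns3 (tensin 3, a focal adhesion protein; exons 14 to 16, Spearman's rho 0.53), Gigyf2 (a translational repressor; exons 4 to 8, 0.50), Cdk8 (the kinase of the Mediator kinase module; exons 3 to 6, 0.47), Prr14l (exons 7 to 9, 0.45) and the noncoding RNA Pvt1 (exon 2, 0.41). The median rho over the 88 was 0.03. All points share libraries and their scaling, and the correlations are weak and descriptive. The 5 were picked for running like Zfp609, whose lowest group is sham at 1 week, so their values at that time are a description. Tns3 averaged 8.95 ± 7.47 (sham) and 23.5 ± 6.42 (TAC) normalized reads (SD, n = 4 each; log2 fold change 1.57), and Gigyf2 averaged 10.4 ± 3.29 and 27.6 ± 5.69 (1.39). Cdk8, Prr14l and Pvt1 differed less at 1 week. Cdk8 averaged 6.6 in sham and 8.8 in TAC (0.49), and Pvt1 9.69 and 12.1 (0.41). Prr14l averaged 8.80 ± 7.48 and 10.1 ± 2.24 (1.01). With Pearson's r on log2 values 4 of the 5 circles remained, and Setbp1 took the place of Cdk8.

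**Figure D4:**
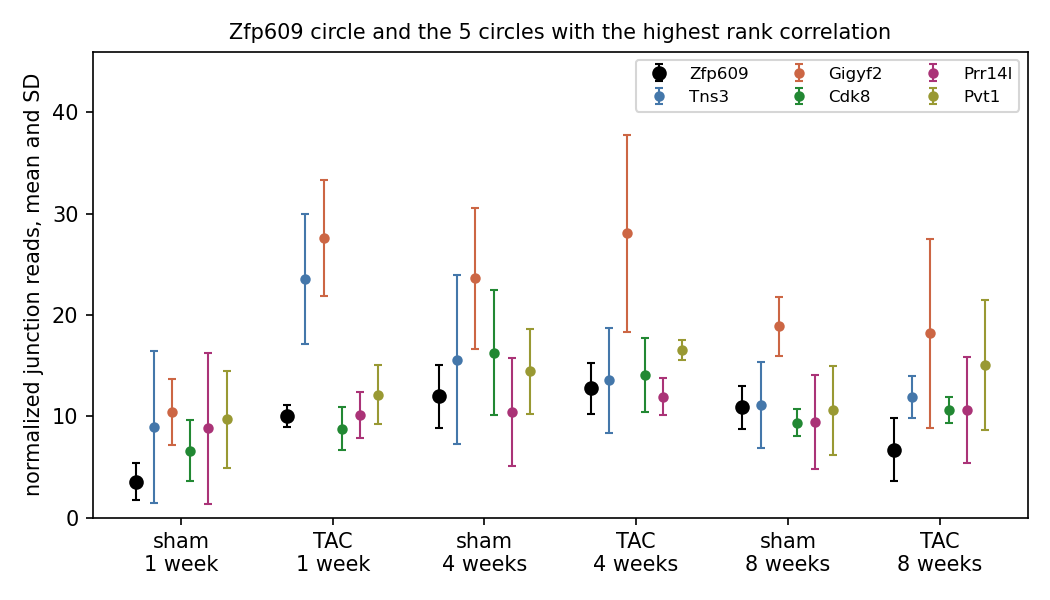
Mean and SD of normalized junction reads in the 6 groups for the Zfp609 circle and the 5 circles with the highest Spearman correlation with it over 24 libraries. The Zfp609 circle has its lowest mean, 3.55, in sham at 1 week, where Tns3 and Gigyf2 average 8.95 and 10.4.

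The protein partners of Zfp609 hosted few circles. Of 32 symbols listed for cohesin, its loader, the Integrator complex and the paralog Zfp608, older names included, 4 hosted a circle: Stag1 and Smc3 of the cohesin ring, Wapl, which releases cohesin from DNA, and Ints8 of Integrator. Their 6 circles split evenly at 1 week (3 positive and 3 negative fold changes, median 0.17 against 0.04 over all circles), and none was called between TAC and sham at any time, where 1.46%, 0.116% and 0% of all circles were, so their count of 0 says nothing particular to them. The most abundant of them, exons 2 and 3 of Stag1, took 0.0311% of junction reads. Factors of circular RNA formation and turnover gave 7 circles from 5 of 30 symbols (Ddx17, Mbnl1, Mbnl2, Tnrc6a and Tnrc6b). At 1 week 3 fold changes were positive and 4 negative (median -0.43 against 0.04 over all circles), with 0 called. The highest of the 7 was exons 9 and 10 of the helicase gene Ddx17. It measured 12.2 ± 6.91 in sham and 4.79 ± 2.33 in TAC (SD, n = 4 each), a log2 fold change of -1.24 (limma adjusted p = 0.226). Next by share were exons 3 to 5 of Tnrc6a (1.07) and exons 3 and 4 of Ddx17 (0.05).

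Other hosts known for their circles did not share one pattern. In this list 30 of 43 symbols hosted 62 circles, with 34 positive and 28 negative fold changes at 1 week (median 0.28 against 0.04 over all), 0 called higher and 2 called lower, where 1.46% of all circles were called. The 2 were circles of Ttn and Ryr2, of cardiac muscle. At 4 weeks 35 were positive and 27 negative, and 2 were called lower, which were all the circles called at that time (0.116%). From 1 to 8 weeks in sham 1 was called higher (0.116% of all). Between TAC and sham at 8 weeks 23 were positive and 39 negative (median -0.35 against 0.03) and none was called. Cdyl, a chromodomain corepressor gene whose exon 2 also forms a well-known circle, was at 21.5 ± 8.12 in sham and 27.6 ± 6.00 in TAC at 1 week (SD, n = 4 each; log2 fold change 0.42, limma adjusted p = 0.672).

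The 60 other circles made of exon 2 alone were compared as a group of like build, chosen after the Zfp609 values were seen. At 1 week 32 had positive and 28 negative fold changes (median 0.16), 1 was called (as were 1.46% of all circles, 0.757% as higher), and in 2 every TAC library was above every sham library (2.21% of all). The called one was Setbp1, which encodes a SET-binding protein: it measured 7.54 ± 4.53 in sham and 18.3 ± 2.66 in TAC (SD, n = 4 each; 1.50, limma adjusted p = 0.042). Averaged over the 3 times, 1 circle of this group was called, as lower in TAC. It was that of Med13l (-0.58 ± 0.14, SE; limma adjusted p = 0.00822; 0.641% of all circles called). From 1 to 4 weeks in sham 34 were positive and 26 negative (median 0.13 against 0.08 over all), and in 2 every 4-week library was above every 1-week library (1.05% of all). From 1 to 8 weeks 36 were positive and 24 negative (median 0.27 against 0.10 over all), none was called (0.116% of all), and in 5 every 8-week library was above every 1-week library (2.15% of all).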

How the data were processed

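Total RNA of mouse cardiac fibroblasts was depleted of ribosomal RNA and sequenced in paired-end mode, per the labels' protocols. FastQC, Trimmomatic, STAR and mm10 were used, per the submitters' processing notes. The sources used here do not give caller settings or the normalization method. The authors deposited 1 table of normalized signal. After an offset of 0.01 was subtracted, 100% of values were multiples of a step particular to the library (within 0.02 of a read), so the signal was taken as junction reads over a library factor. Hosts came from GENCODE M21 by matching exon edges on the junction's strand, and sequences from its transcripts; introns and proteins were not analysed as sequence here. The sequence at the back-splice is not reported here.

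The test was limma 3.58.1 in R 4.3.3 (trended empirical Bayes) on log2(normalized reads + 0.5), with all 24 libraries in 6 groups, no covariate, and Benjamini-Hochberg adjustment over 1717 circles. A check on simulated data used changes larger than the TAC difference of Zfp609 at 1 week, so it says little about this circle. Requiring 2 or more reads in 3 or more libraries left all circles in. Shares of reads were compared by exact permutation with Benjamini-Hochberg adjustment over 3 times. Members named are the Zfp609 circle, the 5 most correlated circles, and the 2 neighbours in level on each side. Of each list, only some of the called and the 3 most abundant circles are named. The members and lists were chosen with earlier results of these data known.

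Replicate numbers of the titles are shared by sham and TAC. At 1 week deviations from the group means correlated weakly in each of the 4 same-numbered pairs (0.155 to 0.257 over 272 circles with at least 5 mean reads). At 4 and 8 weeks they did not in every pair (-0.19 to 0.135 and -0.0175 to 0.206). Libraries of different number were not correlated with each other, so a pairing at 1 week is possible but was not shown. The numbers in the deposited column names differ from the titles at 4 and 8 weeks; pairs by those gave -0.148 to 0.0389 and -0.158 to 0.0516. Other settings tried were 3 scalings, pseudocounts of 0.1 and 1, a filter on means, limma-voom, fits to the groups compared alone, replicate blocks and leaving out each library.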

Additional observations from a re-analysis of the deposited data

Results flagged for a closer look

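In the TAC group of 4 weeks, 1 library was flagged as apart from the other 3. Replicate 4 had 8.99 normalized reads of the Zfp609 circle where the others had 13.8, 13.9 and 14.4, a gap of 0.894 of the group's range. It was also the library with the most junction reads of the series (9146), of which 14 were from this circle. Without it the log2 fold change at 4 weeks was 0.26 in place of 0.11, and it was not called. Chance flags about 1 in 20 groups by this measure, and 5 were examined. Replicate 4 rests on 14 reads of the circle, and replicates 1 to 3 on 17, 19 and 19. The SD of the group was 2.53 normalized reads, under the 3.04 that counting alone would give.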

How the results depend on the processing

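The 13 fitted comparisons and the 3 differences of shares were recomputed 321 times in all under other settings. Of these, 312 kept their sign and, for the fitted comparisons, their side of the threshold. Another 4 passed where the reported fit did not, and 5 changed sign. The differences of shares were judged on sign alone. At 1 week their exact permutation p was 0.0571 with any library left out, the smallest that 3 against 4 libraries allow. With only circles of a mean of at least 5 reads, 3 differences passed with the same estimates: 1.50 for TAC against sham at 1 week, 1.71 for sham at 4 weeks and 1.60 for sham at 8 weeks against 1 week (limma adjusted p 0.0200, 0.0135 and 0.0290). That set holds 272 circles, and the fitted SE is smaller too (0.40 against 0.49 at 1 week), as the fitted spread is shared over the circles tested. Under the other settings at 1 week the estimate was 1.37 to 1.63 and the adjusted p up to 0.369, in the fit to the 8 libraries of that week alone.

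With a library left out the estimate ran from 1.21 to 1.71 at 1 week, -0.011 to 0.26 at 4 weeks, -1.03 to -0.36 at 8 weeks, 1.42 to 1.92 for sham at 4 weeks and 1.31 to 1.81 for sham at 8 weeks against 1 week. The 4-week TAC value turned to -0.011 with the replicate block within weeks, with the replicate block across weeks and without sham replicate 5, which by the titles has no TAC library of its number. The 4-week difference of shares was -0.00445 to 0.0338 percentage points with a library left out. Without 4-week sham replicates 1 and 2, whose columns are named in another style, sham at 8 weeks against 4 weeks turned to 0.11; this setting and the blocks across weeks and by column number were chosen after seeing the data. At 1 week the replicate block gave 1.50 (adjusted p = 0.0574), and no replicate block changed a call. With the replicate block set by column number the values were 1.50, 0.29 and -0.96 at 1, 4 and 8 weeks. Over the settings other than leaving out a library, the circles called at 1 week numbered 4 to 30 against 25, and at 4 weeks 0 to 14 against 2, and in the average over times 1 to 20 against 11 (1 with the block by column number). With a library left out they numbered 6 to 32 at 1 week (6 without sham replicate 2, and 12, 8 and 9 without TAC replicates 2, 3 and 4) and 0 to 4 at 4 weeks (0 without sham replicate 1 or 4 or TAC replicate 3, 1 without TAC replicate 2, 4 without sham replicate 2 or 5), and in the average 4 (without TAC 8-week replicate 1) to 17 (without sham 1-week replicate 1). The planned count tests of edgeR and DESeq2 were not run; limma-voom on the recovered reads and median ratios stood in for them. With 12 reads in sham at 1 week, depth limits each of these values.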
